A study of Mus musculus with 6 samples.

Results

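Short interspersed elements (SINEs) are small retrotransposons that carry no protein of their own and are copied by the enzymes of LINE elements. Their RNA was examined in mouse induced pluripotent stem cells (iPSCs), somatic cells turned back to a state like that of embryonic stem cells, with and without serum response factor (SRF). The subfamilies were taken as the table rows of class SINE with a mean of at least 10 counts over the 6 libraries. All 35 rows of that class met this minimum, out of 25567 rows in all and 1146 transposable element rows. The rarest, FAM, had a mean of 64.2 counts, so that no row lay near the minimum. They belong to 6 families: Alu with 16 subfamilies, B2 with 5, B4, ID and MIR with 4 each, and Deu with 2.

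The 3 SRF KO libraries came from iPSCs whose Srf gene is deleted (SRFΔ/Δ), and the 3 WT libraries from iPSCs that carry the intact conditional allele (SRFf/f) rather than a wild-type one. Both were cultured with serum. The labels do not say whether replicates are separate clones or cultures, so that p-values measure the spread between these samples, which may be technical. The targeted gene went with the labels: in replicate order, as in all such lists here, counts of Srf were 113, 84 and 131 in SRF KO against 1326, 765 and 1066 in WT. The pluripotency list had 2 of 20 genes higher and 9 lower in SRF KO, led by Dppa3 (-2.08), Nanog (-0.79), Tfcp2l1 (-0.70) and Klf4 (-0.52 on the log2 scale). Its summed level was between 7341 and 7452 CPM (counts over the scaled library size, times 1000000) in SRF KO and between 8608 and 9214 CPM in WT. All 20 endoderm genes tested of 21 listed were higher, and their summed level was between 4616 and 4890 CPM in SRF KO and between 988 and 1038 CPM in WT. Cubn (5.88), Lrp2 (3.89), Dab2 (3.68) and Col4a1 (3.36) had the smallest p of this list on the log2 scale. Its marker Ttr had 52, 35 and 51 counts in SRF KO and 0 in each WT library, and Afp, which was too low to be tested, had at most 3 counts in any library. Of 20 fibroblast genes, 19 were higher and none lower, with summed levels of 1660 to 2028 CPM in SRF KO and 809 to 946 CPM in WT. Prrx1 (1.13), Fbn1 (1.38), Col5a2 (1.22) and Col3a1 (1.09) had the smallest p of these. Over all genes tested, 21.2% were higher and 21.3% lower. Bulk samples cannot tell whether the endoderm and fibroblast RNA came from other cells or from the iPSCs themselves. Any part of other cells in the SINE values was not tested. Fewer cells of a type and less RNA per cell cannot be told apart either.

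Rodent SINEs arose from small RNA genes of RNA polymerase III. B1, placed in the Alu family, derives from 7SL RNA, the RNA of the signal recognition particle. B2, ID and the old mammalian MIR derive from tRNA, and B4 joins an ID-like part to a B1-like part. Each copy can carry its own polymerase III promoter, but many copies lie inside introns and untranslated ends of genes. Reads of a subfamily can therefore hold both its own transcripts and pieces of host gene transcripts. A count per subfamily sums over many loci and does not tell these apart. Chromatin marks silence many copies, and B2 RNA is known in mouse for its induction by stress and its presence in early embryos.

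The sequence of the gene behind the ID family is shown because its own row is in the table. Bc1 is a polymerase III gene whose RNA is abundant in neurons. In GRCm38 it lies at chr7:144914470-144914637 on the plus strand, as a long noncoding RNA gene of 168 bases in GENCODE M21. Capitals mark its first 76 bases, the tRNA-like part that ID elements share, up to the first run of at least 15 A bases.
Bc1: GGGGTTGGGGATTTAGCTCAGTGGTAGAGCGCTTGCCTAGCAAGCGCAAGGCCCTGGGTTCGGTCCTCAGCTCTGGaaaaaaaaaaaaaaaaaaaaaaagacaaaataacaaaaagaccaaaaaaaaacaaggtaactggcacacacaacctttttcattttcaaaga
Bc1 had 1 count in WT replicate 1 and 0 in the other 5 libraries, where a count of 0 allows up to 3 counts of the library (counting error only). The 4 ID subfamilies together had between 15858 and 23932 counts per library.

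Of all counts, SINEs took 1.99% ± 0.0673 in the SRF KO libraries against 2.08% ± 0.0556 in the WT libraries, and of the transposable element counts 38.2% ± 0.633 against 40.1% ± 0.865 (SD, n = 3). Within SINE counts of WT, the Alu family held 40.4% ± 0.703, B2 30.1% ± 0.992, B4 21.9% ± 0.184, MIR 4.28% ± 0.0976, ID 3.19% ± 0.0513 and Deu 0.115% ± 0.00332 (SD, n = 3). These shares are of counts, not per copy or per length.

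In SRF KO, 15 of the 35 SINE subfamilies fell slightly and 1 young B2 subfamily rose. These calls, 15 lower and 1 higher, had an adjusted p under 0.05 (edgeR's quasi-likelihood test, adjusted over all features). Over all 15611 features tested, 20.7% were lower and 20.4% higher by the same rule, and over the 798 other transposable element subfamilies 9.65% were lower and 6.02% higher. Fold changes were negative in 52.8% of all features, and in 66.9% of LINE, 60.8% of LTR and 71.6% of DNA transposon subfamilies. Of the 35 SINE subfamilies, 32 had a negative fold change, or 30 when transposable element rows were scaled and fitted alone. In that fit of transposable element rows alone, edgeR called 2 SINE subfamilies lower and 0 higher, with 17 at an unadjusted p under 0.05. Of all rows in that fit, 9.59% were called in either direction. The median log2 fold change of the SINE subfamilies was -0.15, against -0.02 over all features, -0.07 over 139 LINE, -0.05 over 492 LTR and -0.11 over 148 DNA transposon subfamilies. The median subfamily thus had 90.0% of its WT level in SRF KO. In 22 subfamilies all 3 SRF KO levels lay under all 3 WT levels and in 0 above them, where 26.1% and 25.3% of all features, and 18.3% and 9.40% of the other transposable element subfamilies, were separated in these directions. The call counts rested on few libraries, although 32 fold changes were negative in each fit that left out 1 library. When SRF KO replicate 1 was left out, edgeR called 1 subfamily lower and 0 higher, with 8 at an unadjusted p under 0.05. Leaving out SRF KO replicate 3 gave 1 lower and 1 higher, and leaving out WT replicate 1 gave 4 lower and 2 higher. AmnSINE1 was the one subfamily called in all 6 of these fits, and the calls of the other 14 lower subfamilies were lost in both fits that left out SRF KO replicate 1 or 3. None was higher under DESeq2 or when WT replicate 3 was left out, with 20 and 26 subfamilies at an unadjusted p under 0.05 in either direction. Those fits called 35.8% and 38.5% of all features.

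**Figure D1:**
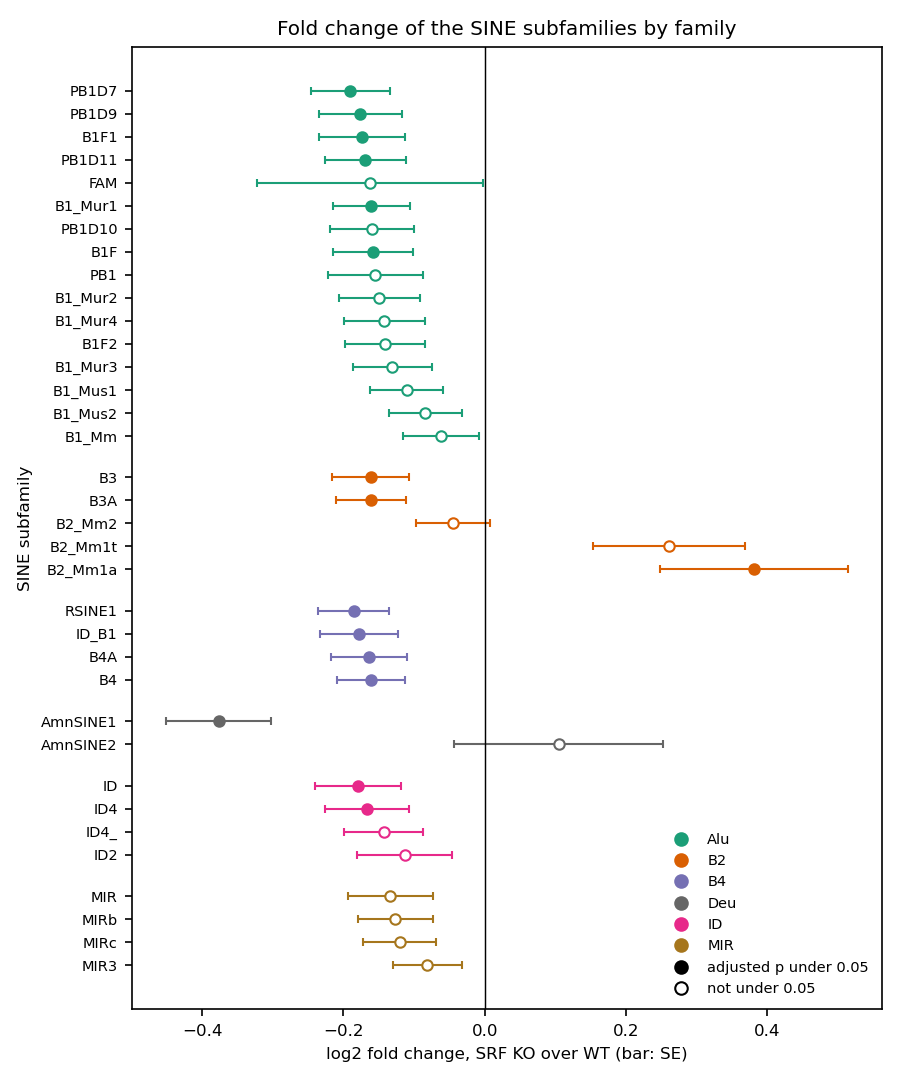
Log2 fold change of SRF KO over WT (x axis, bars are SE) for each of the 35 SINE subfamilies (y axis), coloured by family, with filled points past an adjusted p of 0.05. All but B2_Mm1a, B2_Mm1t and AmnSINE2 lie left of 0, most of them between -0.19 and -0.06.

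The libraries themselves differed in a way that ran through nearly all subfamilies. WT replicate 2 held the highest level of the 6 libraries in 32 of 35 subfamilies, and SRF KO replicate 3 the lowest in 29. Within SRF KO, replicate 2 was the highest in 30. WT replicate 2 was also highest in the summed level of DNA transposons, at 1496 CPM against 1383 and 1389 CPM in the other WT libraries. The same library had a summed LINE level of 8711 CPM, against 7412 and 7399 CPM in WT replicates 1 and 3. Most SINE subfamilies therefore moved together from library to library, and their fold changes are not independent of each other.

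**Figure D2:**
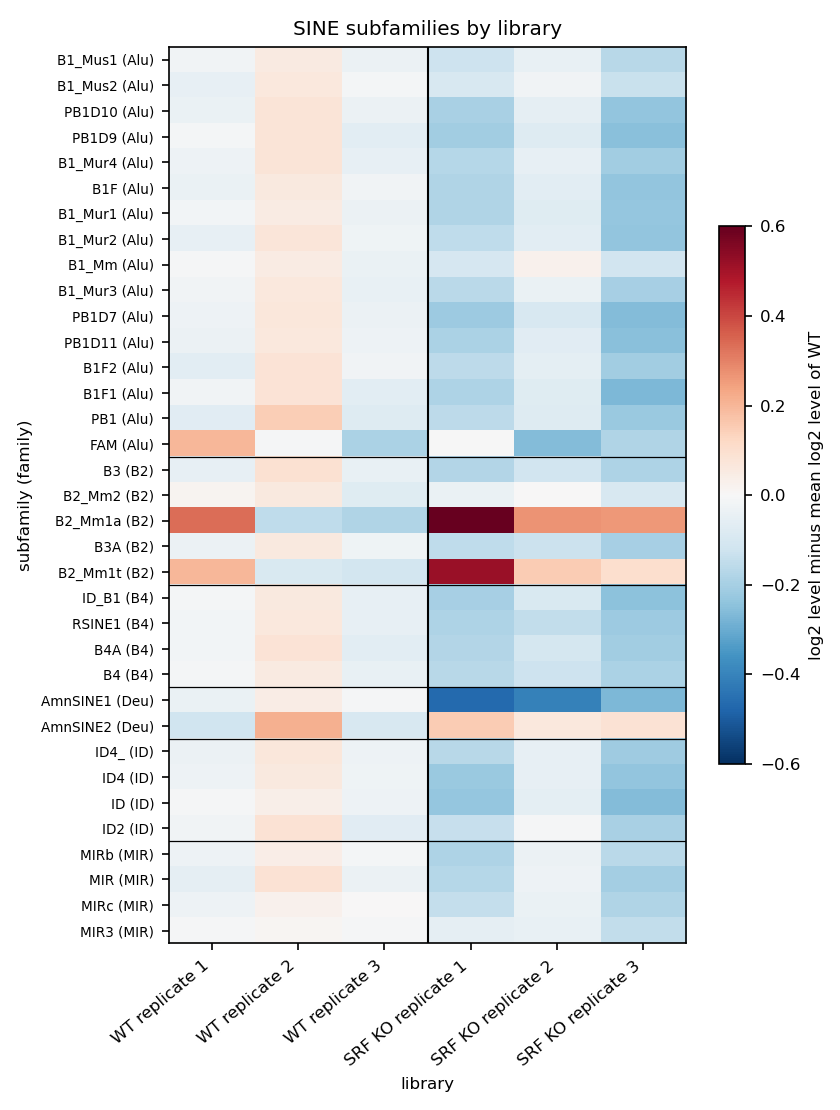
Level of each SINE subfamily (rows, by family) in each library (columns), as log2 level minus the mean log2 level of WT, red higher and blue lower. SRF KO replicates 1 and 3 are the bluest columns, and the rows of B2_Mm1a and B2_Mm1t run against most others, with WT replicate 1 and all SRF KO libraries above WT replicates 2 and 3.

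All SINE counts summed did not pass the threshold. The sum was 19816, 20399 and 18767 CPM in SRF KO and 21057, 21991 and 20358 CPM in WT, so that the groups overlapped through SRF KO replicate 2. The log2 fold change was -0.10 (SE 0.06, edgeR adjusted p 0.156). In this fit, with 1 row per transposable element class, 21.7% of rows were lower and 21.2% higher.

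By family, B4, ID and Deu totals were lower and the other totals did not pass the threshold. In this fit, with 1 row per family, 21.6% of rows were lower and 21.4% higher. The B4 total was 4066, 4233 and 3970 CPM in SRF KO and 4567, 4880 and 4420 CPM in WT, with no overlap. Its log2 fold change was -0.18 (SE 0.06, edgeR adjusted p 0.0217). The ID total was 590.2, 649 and 578 CPM in SRF KO and 660.2, 710.3 and 654 CPM in WT. These groups lay close together without overlap, and the fold change was -0.16 (SE 0.06, edgeR adjusted p 0.0479). The Deu total was 18.5, 18.9 and 20.7 CPM in SRF KO and 23.5, 25.6 and 23.9 CPM in WT, well apart. Its fold change was -0.32 (SE 0.07, edgeR adjusted p 0.00332). Most Deu counts came from AmnSINE1, with 428 of 497 in SRF KO replicate 1 and 774 of 851 in WT replicate 1. The other Deu row, AmnSINE2, was at 0.10 and did not pass.

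The Alu family total was 7654, 8191 and 7428 CPM in SRF KO and 8344, 9040.2 and 8254 CPM in WT. Its groups did not overlap, but SRF KO replicate 2 came within 1 SD of the lowest WT library, and the log2 fold change of -0.14 (SE 0.06) did not pass (edgeR adjusted p 0.0737). The MIR total was 814, 875 and 801 CPM in SRF KO and 881, 943 and 885 CPM in WT, again without overlap, at -0.12 (SE 0.05, edgeR adjusted p 0.0873). Without SRF KO replicate 2, both totals passed, Alu at -0.18 (edgeR adjusted p 0.0467) and MIR at -0.16 (edgeR adjusted p 0.04996). The B2 total was 6729, 6290.4 and 6068 CPM in SRF KO and 6579, 6525 and 5978 CPM in WT, at 0.00 (SE 0.06, edgeR adjusted p 0.997). Its flat sum held subfamilies with opposite signs. Summed without B2_Mm1a and B2_Mm1t, an alternative added after the values were seen, B2 was at -0.13 (edgeR adjusted p 0.0761). The call of the ID total was lost under DESeq2 (-0.15), with total counts in place of TMM (-0.12), and in the fits that omitted SRF KO replicate 1 (-0.14), SRF KO replicate 3 (-0.12) and WT replicate 1 (-0.17). The B4 call was lost without the same 3 libraries, at -0.17, -0.15 and -0.19, and both were lost when transposable element rows were fitted alone (-0.05 for ID, -0.07 for B4).

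**Figure D3:**
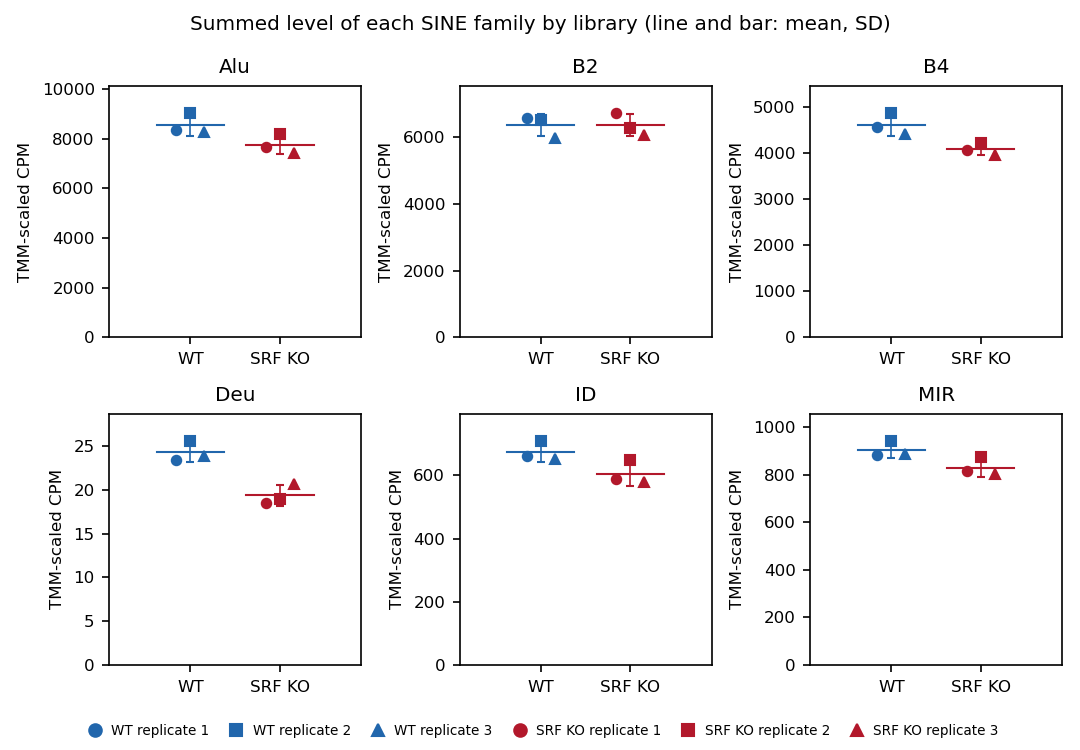
Summed level of each SINE family in TMM-scaled CPM (y axes start at 0) for the WT libraries in blue and the SRF KO libraries in red, with the mean as a line and the SD as a bar. In B4, ID and Deu the 3 SRF KO points lie under the 3 WT points, and in B2 the groups lie on each other.

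Among the B2 subfamilies, the young B2_Mm1a was higher in SRF KO. B2 elements are active in mouse, and the B2_Mm subfamilies are the youngest of the family, while B3 and B3A are older. B2_Mm1a stood at 1439, 1111 and 1102 CPM in SRF KO and at 1161, 829 and 814 CPM in WT. The groups overlapped because WT replicate 1 lay above SRF KO replicates 2 and 3, and in each group replicate 1 was the highest. It rose by 0.38 on the log2 scale (SE 0.13, edgeR adjusted p 0.0380), or 130.3% of the WT mean. It was 0.57 without WT replicate 1, and its call was lost without SRF KO replicate 1 (0.24) or without WT replicate 3 (0.29), under DESeq2 (0.39) and with transposable element rows alone (0.46).

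B2_Mm1t, a close relative, had 932, 723 and 698 CPM in SRF KO and 748, 612 and 604 CPM in WT. The order of the libraries was that of B2_Mm1a, with replicate 1 high in both groups and WT replicate 1 above SRF KO replicates 2 and 3. Its log2 fold change of 0.26 (SE 0.11) did not pass (edgeR adjusted p 0.0733). It passed with no filter on low counts, with total counts in place of TMM, and without WT replicate 1 (0.26, 0.30 and 0.37), and was at 0.12 without SRF KO replicate 1 (edgeR adjusted p 0.365). These rows are therefore not independent, and near-identical copies can share reads under the unknown counting rule.

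The third young subfamily, B2_Mm2, did not share this order. It stood at 1280, 1316 and 1229 CPM in SRF KO and 1330, 1367 and 1249 CPM in WT, at -0.04 (SE 0.05, edgeR adjusted p 0.533), and between -0.08 and -0.01 over the fits that left out 1 library. B3, the B2 subfamily with the most counts, fell from 2241, 2472 and 2248 CPM in WT to 2051, 2138 and 2036 CPM in SRF KO. Its log2 fold change was -0.16 (SE 0.05, edgeR adjusted p 0.0333). B3A fell from 1106, 1180 and 1112 CPM to 1018, 1037 and 986 CPM, with the same fold change of -0.16 (SE 0.05, edgeR adjusted p 0.0221). Neither overlapped between the groups. The B3 call was kept in 2 of the 6 fits that left out 1 library, those without WT replicate 2 or WT replicate 3, and was lost with total counts (-0.12) and with transposable element rows alone (-0.078).

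**Figure D4:**
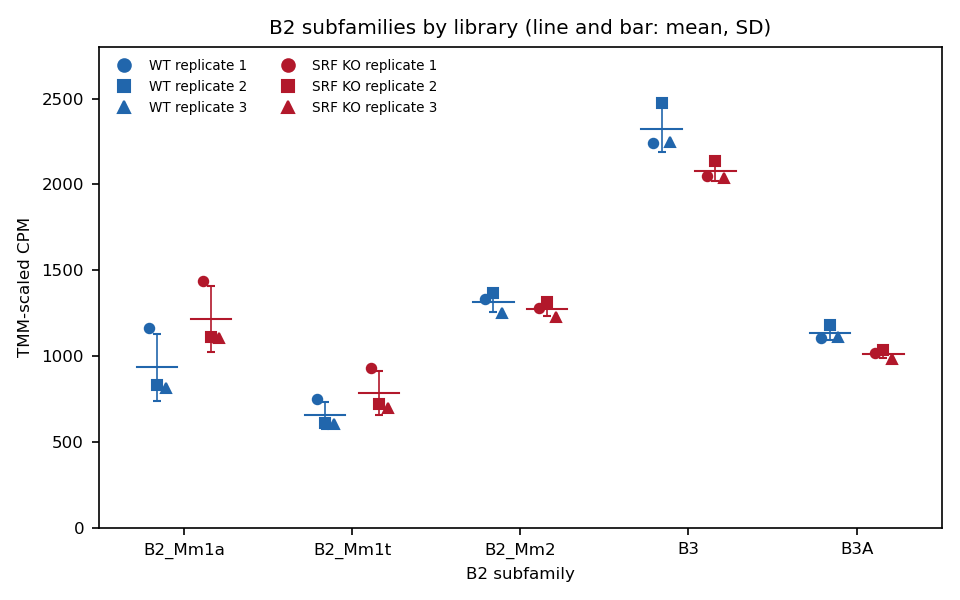
Level of the 5 B2 subfamilies in TMM-scaled CPM (y axis from 0) in each library, with mean and SD. Replicate 1 (circles) stands apart in both groups in B2_Mm1a and B2_Mm1t but not in B2_Mm2, B3 or B3A.

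Ratios within a library do not depend on how libraries are scaled. Of the B2 counts, B2_Mm1a and B2_Mm1t together made up 31.3% ± 3.43 in the SRF KO libraries against 24.9% ± 3.56 in the WT libraries (SD, n = 3). The log2 ratio of B2_Mm1a to B3 was -0.51, -0.94 and -0.89 in SRF KO and -0.95, -1.58 and -1.47 in WT. These did not overlap, although SRF KO replicate 2 and WT replicate 1 nearly met. The exact two-sided permutation p was 0.1, the smallest that 3 libraries against 3 allow, or 0.167 adjusted over the 10 pairs of B2 subfamilies. These pairs were chosen after the values were seen. B2_Mm1a and B3 were called higher and lower from the same counts, so that their ratio is not separate evidence. B2_Mm2 against B3 was higher in all SRF KO libraries as well, by 0.12 (exact permutation p 0.1). The ratio of B3 to B3A, the older pair, differed by 0.00 (exact permutation p 1).

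Between families, 10 pairs were compared by the same permutation test and none could pass. The B2 to B4 log2 ratio was 0.73, 0.57 and 0.61 in SRF KO and 0.53, 0.42 and 0.44 in WT, without overlap. The difference was 0.18 (exact permutation p 0.1, 0.286 adjusted over the pairs). It was 0.05 when B2_Mm1a and B2_Mm1t were left out of the B2 sum, and the groups then had the same p of 0.1. The Alu to B4 ratio was 0.91, 0.95 and 0.90 in SRF KO and 0.87, 0.89 and 0.90 in WT, a difference of 0.04 without overlap (exact permutation p 0.1). The other 8 pairs overlapped, and their differences were between -0.14 for Alu to B2 and 0.16 for B2 to ID.

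SINE counts were also set against the other classes of the same library. The log2 ratio of SINE to LINE counts was 1.30, 1.23 and 1.25 in SRF KO and 1.51, 1.34 and 1.46 in WT, a difference of -0.17. The ratio of SINE to LTR counts was 0.09, 0.03 and 0.04 in SRF KO and 0.18, 0.16 and 0.17 in WT, a difference of -0.12. Both were lower in every SRF KO library than in any WT library (exact permutation p 0.1, or 0.2 adjusted over the 4 ratios). Against DNA transposons the ratio differed by 0.04, and against all gene counts by -0.07, with overlapping groups (exact permutation p 0.2 for each). SINEs were thus lower relative to LINE and LTR counts in these libraries, without a test that could pass.

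**Figure D5:**
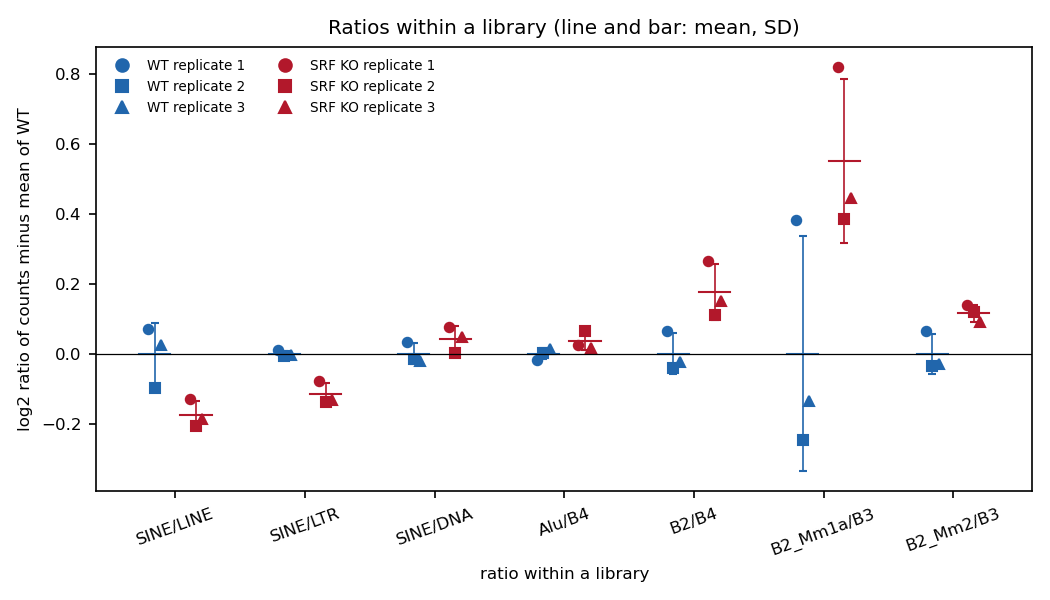
Log2 ratios of counts within a library, minus the mean of the WT libraries (y axis), for 7 ratios (x axis), with mean and SD. SINE to LINE and SINE to LTR lie under 0 in all SRF KO libraries, and B2_Mm1a to B3 spreads most, with replicate 1 the highest of both groups.

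Within the Alu family, which holds the B1 elements, the fold changes were all negative and between -0.19 and -0.06, although B1_Mm was at 0.018 when transposable element rows were fitted alone. Of the Alu family rows placed by age here, the proto-B1 elements are the oldest, B1F and B1_Mur follow, and B1_Mus and B1_Mm are the youngest. FAM, the remaining row of the family, is in none of the age lists. Past the threshold, 6 of 16 were lower, among them 3 of the 5 proto-B1 rows, where 20.7% of all features were. PB1D7 stood at 361, 393 and 351 CPM in SRF KO and 411, 439.9 and 410.2 CPM in WT. It fell by 0.19 on the log2 scale (SE 0.06, edgeR adjusted p 0.0178), and the groups did not overlap. PB1D9 (-0.18), B1F1 (-0.17), PB1D11 (-0.17), B1_Mur1 (-0.16) and B1F (-0.16) fell as well. PB1D10 lay just outside, at 838, 924 and 814 CPM in SRF KO and 932, 1011 and 934 CPM in WT (-0.16, SE 0.06, edgeR adjusted p 0.0504).

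The youngest B1 rows had the smallest differences of the family. B1_Mm stood at 412, 449 and 407 CPM in SRF KO and 438, 457 and 428 CPM in WT, with overlap, at -0.06 (SE 0.05, edgeR adjusted p 0.386). B1_Mus2 had 918, 968 and 897 CPM against 949.7, 1026 and 974 CPM (-0.08, edgeR adjusted p 0.224). B1_Mus1, with the most counts of the family, had 1145, 1212 and 1114 CPM against 1232, 1296 and 1219 CPM (-0.11, edgeR adjusted p 0.111). Over the fits that left out 1 library, B1_Mm was between -0.10 and -0.03, B1_Mus2 between -0.11 and -0.05 and B1_Mus1 between -0.14 and -0.08. Over the list of 6 young rodent subfamilies, 1 was higher and 0 lower, with a median of -0.05. The 17 rows of the list of intermediate age had 11 lower and 0 higher with a median of -0.16. Of all features, 20.7% were lower and 20.4% higher. The 5 proto-B1 rows had 3 lower and 0 higher with a median of -0.17. The 6 old, mammalian-wide rows had 1 lower and 0 higher. Their median of -0.12 was a smaller fall than in the intermediate and proto-B1 lists. These lists were typed from general knowledge of repeat ages and their difference was not tested.

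All 4 B4 subfamilies fell, and none overlapped between the groups. Of all features, 20.7% were called lower and 26.1% lay lower without overlap. RSINE1 stood at 1304, 1339 and 1273 CPM in SRF KO and 1467, 1550.5 and 1435 CPM in WT. Its fold change of -0.19 (SE 0.05) had an edgeR adjusted p of 0.0118. ID_B1, a name for its mixed origin, went from 1532, 1609.5 and 1492 CPM in WT to 1345, 1449 and 1303 CPM in SRF KO (-0.18, edgeR adjusted p 0.0234). B4A and B4 fell by 0.16 each on the log2 scale, with edgeR adjusted p of 0.0296 and 0.0199. ID_B1 passed the threshold under each of the 6 other scalings, filters and models tried, but the 4 calls were lost when SRF KO replicate 1 or SRF KO replicate 3 was left out.

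Of the ID rows, the subfamily named ID stood at 58.5, 66.0 and 57.4 CPM in SRF KO and 68.4, 70.4 and 67.3 CPM in WT. It fell by 0.18 on the log2 scale (SE 0.06, edgeR adjusted p 0.0335), with SRF KO replicate 2 close under WT replicate 3. ID4 fell by 0.17 (SE 0.06, edgeR adjusted p 0.0408), from 251, 267 and 252 CPM to 219.5, 248 and 218 CPM. ID4_ had the most counts, with 273, 296 and 264 CPM against 299, 321 and 299.6 CPM, and did not pass (-0.14, edgeR adjusted p 0.0588). ID2 was at -0.11 (edgeR adjusted p 0.204). All 4 thus lay on the same side of 0.

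The old, mammalian-wide rows differed among themselves. AmnSINE1 is an ancient SINE of which many copies are conserved between species, and it had the smallest p of all 35. It had 428, 440 and 527 counts in SRF KO and 774, 584 and 628 counts in WT. Scaled, these were 15.9, 16.6 and 18.2 CPM in SRF KO and 21.4, 22.7 and 21.9 CPM in WT, far apart for their spread. Its level in SRF KO was 76.9% of that in WT, or -0.38 on the log2 scale (SE 0.07, edgeR adjusted p 0.00176). This call was made in all 6 fits that left out 1 library, at -0.43 to -0.33, and in the 6 other alternatives. The table does not give the loci behind these reads.

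AmnSINE2, the other Deu row, had 64 to 71 counts in SRF KO and 62 to 77 in WT, at 0.10 (SE 0.15, edgeR adjusted p 0.606). The MIR rows were all negative but none passed. MIRb stood at 273, 302 and 277 CPM in SRF KO and 304, 319 and 308 CPM in WT (-0.13, edgeR adjusted p 0.0762), without overlap by a small gap. MIR and MIRc were at -0.13 and -0.12, with edgeR adjusted p of 0.0974 and 0.0805. MIR3 was at -0.08 (edgeR adjusted p 0.207).

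Genes that make, silence or bind SINE RNA were read from lists typed from general knowledge. Of 30 genes of RNA polymerase III and its factors, 5 were higher and 3 lower in SRF KO, with a median log2 fold change of 0.06, against 21.2% and 21.3% of all genes tested. The catalytic subunit Polr3a rose from 65.0, 64.9 and 63.5 CPM to 75.4, 74.4 and 74.2 CPM (0.21, SE 0.05, edgeR adjusted p 0.00365). Polr3d, another subunit, rose by 0.19 (edgeR adjusted p 0.00934). Polr3gl, one of 2 alternative forms of a subunit, fell by 0.45 (SE 0.07, edgeR adjusted p 0.000485), while its counterpart Polr3g was at -0.05 (edgeR adjusted p 0.524). Snapc1, part of the complex for snRNA promoters, fell by 0.28 (edgeR adjusted p 0.0116), a call lost when SRF KO replicate 3 was left out (-0.24). Calls in this list came to 4 when SRF KO replicate 1 or 3 was left out and to 14 when WT replicate 2 was. Those fits called 30.4%, 30.8% and 48.1% of all features, against 41.1% in the main fit.

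Of 18 chromatin repressors, 6 were lower and 1 higher, with a median of -0.08. Of all genes tested, 21.3% were lower and 21.2% higher. The DNA methyltransferase Dnmt1 fell from 378, 358 and 361 CPM to 309.8, 314 and 308 CPM (-0.24, SE 0.05, edgeR adjusted p 0.00172). Its partner Uhrf1 fell by 0.21, the heterochromatin protein gene Cbx1 by 0.26 and Adnp2 by 0.19 on the log2 scale. Adnp and Chd4, which form a complex known to bind young B2 copies in mouse embryonic stem cells, were at -0.04 and 0.04 (edgeR adjusted p 0.550 and 0.509). Leaving out SRF KO replicate 1 or 3 gave 4 calls, in fits that called 30.4% and 30.8% of all features.

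Of 17 RNA binding proteins, 3 were lower and 0 higher, with a median of -0.09, where 21.3% and 21.2% of all genes tested were. Ezh2, the methyltransferase of Polycomb, fell by 0.32 and Hnrnpk by 0.19 on the log2 scale. The Hnrnpk call was lost when SRF KO replicate 1 (-0.19) or 3 (-0.17) was omitted. Srp9 and Srp14, whose proteins bind the 7SL-like fold of B1 RNA, were at 0.07 each and did not pass (edgeR adjusted p 0.368 and 0.396). Leaving out WT replicate 2 gave 7 calls, and leaving out WT replicate 3 gave 6, in fits that called 48.1% and 38.5% of all features.

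Rn45s and Rpph1, chosen after their values were seen, were higher in SRF KO. The ribosomal RNA precursor Rn45s stood at 1766, 1365 and 2081 CPM in SRF KO and 1500.4, 904 and 1099.8 CPM in WT (0.57, SE 0.17, edgeR adjusted p 0.0182). WT replicate 1 was the highest of WT, as in B2_Mm1a, but SRF KO replicate 3 was the highest of SRF KO. The Rn45s call was lost without that library (0.42, edgeR adjusted p 0.0995) and under DESeq2 (0.58). Rpph1, the polymerase III RNA of RNase P, stood at 7.77, 7.10 and 8.19 CPM in SRF KO and 2.15, 1.28 and 3.07 CPM in WT (1.81, SE 0.20, edgeR adjusted p 2.8e-05), without overlap. Replicate 3 was its highest library in both groups, unlike in B2_Mm1a. Whether Rn45s or Rpph1 is linked to B2_Mm1a was not tested. Rmrp, read beside them, had 5 to 18 counts per library and did not pass (0.83, edgeR adjusted p 0.099). Of 11 RNAs retained in the nucleus, 4 were higher and 2 lower with a median of 0.11, where 21.2% and 21.3% of all genes tested were. The smallest p were those of Rian (1.10), Meg3 (0.87), Kcnq1ot1 (0.44) and Firre (-0.16). The Firre call was lost under DESeq2 (-0.15), with total counts (-0.12) and in the fits without SRF KO replicate 1 (-0.18), 2 (-0.13) or 3 (-0.15) or the first WT replicate (-0.15). Malat1, the most abundant of them, was at 0.11 (edgeR adjusted p 0.260). This list had 3 calls under DESeq2 and in each fit that omitted SRF KO replicate 1 or 3 or the first WT replicate. In that order, these fits called 35.8%, 30.4%, 30.8% and 32.5% of all features. The part of these RNAs in the SINE values was not tested.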

How the data were processed

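The deposited table holds raw whole-number counts of reads per gene and per transposable element subfamily, made by the authors from 150 bp paired reads with adaptors and poor reads taken out, per the labels' protocols. Build mm10 and DESeq2 are named in the submitters' processing notes. The aligner, the counting program and its rule for reads that fit several copies, the annotation and the use of strand are not given in the sources used here. All 24421 gene rows and 1146 transposable element rows were fitted together in R 4.3.3, after edgeR's filterByExpr (minimum count of 10) and TMM scaling, with the quasi-likelihood test of edgeR 4.0.16. Its p-values were adjusted by Benjamini-Hochberg over the 15611 features tested, with a threshold of 0.05. The SE is the fold change over the root of the test's F. Family and class totals were fitted in the same way, in tables where their rows replace the subfamilies, and ratios within a library were tested by exact permutation (two-sided, 20 assignments). Alternatives were DESeq2 1.42.0, other scalings and filters, a replicate block and leaving out each library. Scripts were tested on simulated data. Total counts were between 26321602 and 36680156 per library. No pair of replicates agreed within sampling noise. Of the subfamilies, those named are all past the threshold, the 3 with most counts in each family and the young rodent list, and up to 4 genes of each gene list, by smallest p, that passed. The members, lists and tests were chosen with earlier results of these data known, and other names were chosen after their values were seen. One gene that this rule names is not reported here.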

Additional observations from a re-analysis of the deposited data

How the results depend on the processing

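Over 32 main results, 248 comparisons with an alternative were labelled the same, 10 weaker, 6 stronger, 31 moved and 8 reversed. The same meant an equal direction and call for fold changes, and within 1.5 times for counts. For the median and for ratios without 1 library it meant a shift under the SD within groups. Other alternatives of the ratios needed the same sign only, whatever their size. SINE subfamilies lower were 6 with total counts without TMM, 2 with transposable element rows alone, 1 at an adjusted p under 0.01 and between 1 and 21 across the fits without 1 library, and those higher were 2 with total counts, 0 with transposable element rows alone, 2 with no filter, 0 at 0.01, 0 under DESeq2 and between 0 and 2 without 1 library. Calls over all features in either direction were 41.1% in the main fit, 35.8% under DESeq2 and 39.8% with total counts. They were 31.1% with no filter, 9.59% with transposable element rows alone, and between 30.4% and 48.1% without 1 library. The median fold change was -0.072 with transposable element rows alone, and between -0.18 and -0.11 without 1 library. The median over all features moved by less than 0.1 under every scaling. No filter gave Alu at -0.14 (past the threshold) and B2 at -0.000102 (reversed). Without 1 library, totals were between -0.13 and -0.072 for SINE, -0.18 and -0.099 for Alu, -0.041 and 0.036 for B2 (reversed when SRF KO replicate 1, at -0.041, or WT replicate 3, at -0.040, was left out), -0.21 and -0.14 for B4, -0.21 and -0.12 for ID, and -0.16 and -0.092 for MIR. B4 was weaker with transposable element rows alone (-0.066), and ID under DESeq2 (-0.15), with total counts (-0.12) and with transposable element rows alone (-0.046). Without B2_Mm1a and B2_Mm1t in the sum, chosen after the data were seen, B2 was at -0.13 and B2 to MIR at -0.0057, both reversed. By the median of subfamilies, Alu to MIR was 0.022 and B4 to ID 0.0017, both reversed. Without 1 library, B4 to ID was between -0.033 and 0.0058, reversed without SRF KO replicate 2. Calls without 1 library were between 4 and 14 for RNA polymerase III, 4 and 10 for chromatin repressors, 2 and 7 for RNA binding proteins and 3 and 8 for nuclear RNAs, which had 3 under DESeq2. The cause was not tested, except that a stricter threshold lowers counts by construction.

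Whether replicate numbers mark pairs is not given by the labels. Deviations of libraries with the same number correlated at 0.0435, 0.358 and 0.218. SRF KO replicates 2 and 3 were closest to the WT library of their own number, and SRF KO replicate 1 to WT replicate 3. A replicate block called 49.4% of all features, against 41.1% without it. With a replicate block, B2_Mm1t was at 0.26 and passed, 26 subfamilies were lower and 2 higher, total SINE was at -0.10, Alu at -0.14 and MIR at -0.12, all past the threshold. The block called 15 RNA polymerase III, 11 chromatin repressor and 8 RNA binding genes.

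With transposable element rows alone, B1_Mm (0.018) and B2_Mm2 (0.037) reversed. Depth limits FAM and AmnSINE2, with under 100 counts in every library.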

Other observations

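Small rows related to SINEs were read outside the 35 subfamilies. The row MER131, whose class is given as an uncertain SINE, had 21, 22 and 24 counts in SRF KO and 30, 15 and 37 counts in WT, with overlapping groups. The repeat row 7SK, from the polymerase III RNA that holds the elongation factor P-TEFb, had 8.33, 8.50 and 7.64 CPM in SRF KO and 8.50, 10.03 and 8.96 CPM in WT (log2 fold change -0.16, edgeR adjusted p 0.194). Rn4.5s, a small RNA gene related to B1, had between 0 and 6 counts per library. These rows were chosen after their values were seen.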
